A study of Mus musculus with 15 samples.

Results

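The polycomb repressive complex 2 (PRC2) is described here through 10 genes out of the 17454 in the expression table, taken by gene name, and all 10 were present. They comprised the catalytic subunits *Ezh2* and *Ezh1*, the core subunits *Eed* and *Suz12*, the histone-binding subunits *Rbbp4* and *Rbbp7*, and the accessory factors *Jarid2*, *Aebp2*, *Mtf2* and *Phf19*. PRC2 methylates H3K27, a mark found at silenced developmental genes, and its catalytic subunit is either EZH2, typical of dividing cells, or its paralog EZH1. EED and SUZ12 hold the enzyme in an active form, RBBP4 or RBBP7 binds histones, and the accessory factors define the alternative forms of the complex, one with JARID2 and AEBP2 and one with a Polycomb-like protein such as MTF2 or PHF19.

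The RNA came from erythro-myeloid progenitors (EMPs), early blood precursors that bud from yolk sac endothelium and give red and myeloid cells, sorted from individual mouse yolk sacs at E10.5. The 15 libraries comprised 5 of Vav-Ezh2-KO, 5 of Tie2-Ezh2-KO, 2 of Vav-Ezh2-WT and 3 of Tie2-Ezh2-WT, with 1 yolk sac of the C57BL/6 strain per library. All animals, WT included, carried *Ezh2*fl/fl. Tie2-Ezh2-KO embryos had in addition 1 copy of Tie2-Cre, which acts in endothelium before EMPs emerge, and Vav-Ezh2-KO embryos 1 copy of Vav-Cre (the Vav-iCre line), which acts in hematopoietic cells, while the WT embryos of both crosses carried no Cre. Both sexes were used, and the libraries were not assigned to sorting days. Values are RPKM, reads scaled to gene length and to the depth of the library, so that levels of different genes can be set roughly beside each other. The scaling uses 1 length per gene, among the members from 2060 bases for *Eed* to 6616 for *Aebp2*. It does not correct a recovery of amplified cDNA that varies with length, which was not tested. Reads on genes, recovered from the RPKM steps, ranged from 10407398 to 41025074 per library with a median of 16091836, and no member rested on fewer than 25 reads in any library.

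The sorted identity was checked with 7 EMP markers, of which *Kit*, *Itga2b* (CD41), *Fcgr3* and *Fcgr2b* (CD16/32) were part of the sort itself. Their summed level was 311 ± 35.2 RPKM (SD, n = 5) in WT, 279 ± 45.7 (SD, n = 5) in Tie2-Ezh2-KO and 332 ± 66.2 (SD, n = 5) across the Vav-Ezh2-KO libraries, with *Fcgr3* the most abundant by its mean over all libraries, and none of the 7 was called in any comparison. In Tie2-Ezh2-KO against WT 6 of 7 had a negative change, with a median of -0.20. The CD16/32 genes *Fcgr2b* and *Fcgr3* were lowest among them, at -0.65 and -0.47 (limma adjusted p = 0.131 for both), and at -0.87 and -0.52 against Vav-Ezh2-KO (limma adjusted p = 0.102 and 0.117). Markers of mesenchyme summed to at most 1.42 RPKM in any library. Visceral endoderm markers were high in 2 libraries only, with sums of 143 RPKM in Tie2-Ezh2-WT replicate 4 and 214 RPKM in Tie2-Ezh2-KO replicate 7, against 1.60 to 12.1 RPKM in the other 13. Tie2-Ezh2-KO replicate 9 was the library least like the rest of its group, with a mean Pearson r across 14394 genes, which are not independent replicates, of 0.970 against 0.973 to 0.976 for the other 4. It also had the lowest sums of all libraries for EMP markers (204 RPKM) and macrophage markers (0.975 RPKM). Its megakaryocyte sum (231 RPKM) was the highest of its group, while its endothelial sum (37.9 RPKM) lay inside the range of the group. Leaving out the 2 libraries with visceral endoderm transcripts was chosen after seeing the data, and the calls of members and markers are given with and without these 3 libraries.

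The 10 members spanned a wide range of abundance. *Rbbp7* was the most abundant in all 15 libraries, at 399.8 to 527 RPKM, and ranked 211 of 17454 genes by its mean. *Eed* followed at 62.1 to 103 RPKM, and *Rbbp4* at 29.8 to 68.8 and *Mtf2* at 35.5 to 67.5 RPKM came next. These last 2 could not be put in order, since *Rbbp4* was above *Mtf2* in 7 of 15 libraries. *Ezh2* lay at 24.8 to 42.4 RPKM, below *Mtf2* in 14 of 15 libraries, and *Suz12* at 6.00 to 14.6 RPKM. *Aebp2*, *Jarid2* and *Ezh1*, with means over all libraries of 2.34, 2.20 and 2.18 RPKM, overlapped and had no fixed order among themselves. *Phf19* had the lowest mean, 1.56 RPKM, and was below *Ezh1* in 12 of 15 libraries. The levels of EED and SUZ12 transcripts, whose proteins sit together in the complex, thus differed within every library, and a transcript level says nothing of the amount of protein.

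**Figure D1:**
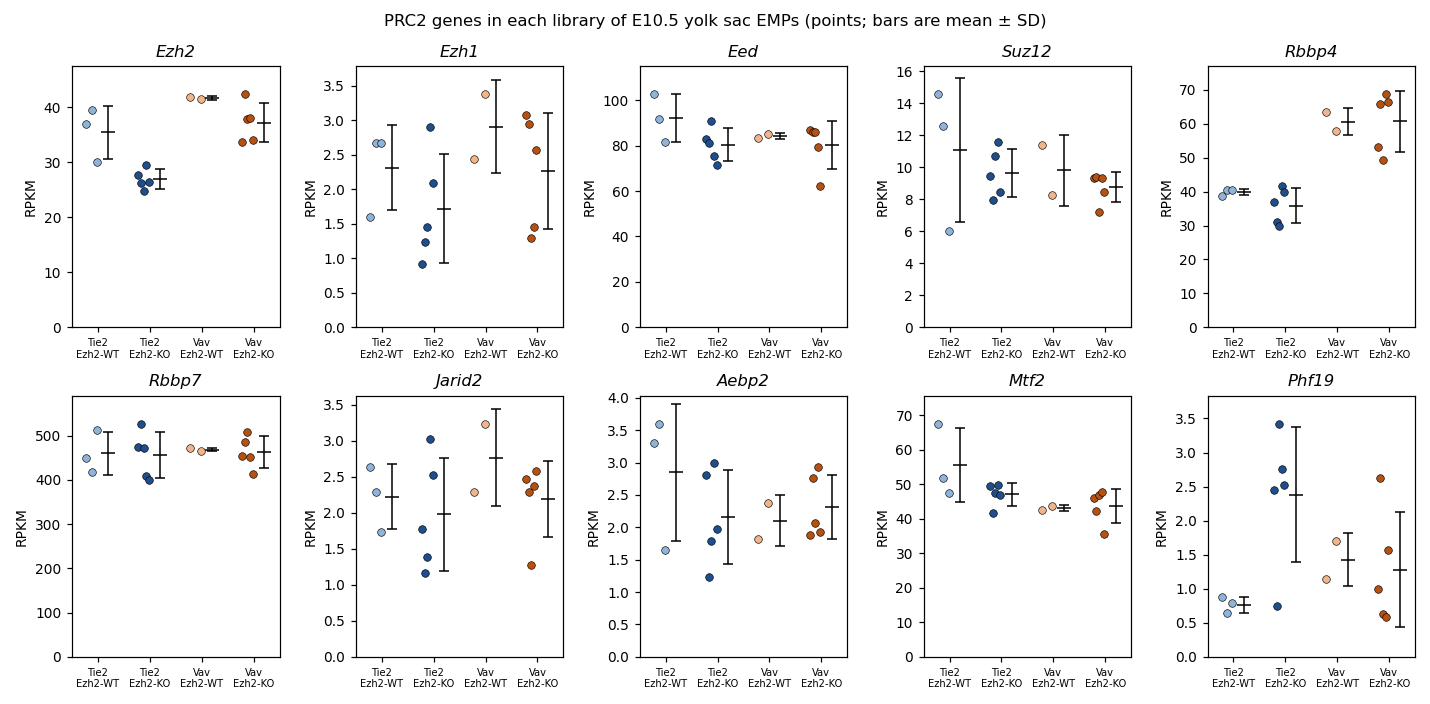
RPKM (y axis, from 0) of the 10 PRC2 genes in each library, with the 4 groups on the x axis; points are libraries and the bars beside them the mean ± SD. *Ezh2* lies lower in the 5 Tie2-Ezh2-KO libraries than in all others, *Rbbp4* lies lower in all libraries of the Tie2-Cre cross than in those of the Vav-Cre cross, and 4 of 5 Tie2-Ezh2-KO libraries lie above all WT libraries for *Phf19*.

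*Ezh2*, the targeted gene, encodes the main H3K27 methyltransferase of PRC2 and lies on chromosome 6 of GRCm38 from 47530274 to 47595270, on the minus strand. In Tie2-Ezh2-WT replicates 4, 10 and 12 it stood at 36.9, 39.5 and 30.1 RPKM, and in Vav-Ezh2-WT replicates 4 and 6 at 42.0 and 41.5 RPKM. Tie2-Ezh2-KO replicates 7, 9, 11, 13 and 17 gave 27.8, 26.2, 24.8, 29.5 and 26.5 RPKM. Vav-Ezh2-KO replicates 1, 9, 10, 26 and 28 gave 33.7, 42.4, 37.8, 38.1 and 34.0 RPKM. All 5 Tie2-Ezh2-KO libraries were thus below every other library, although the lowest WT library was close to the highest of them, whereas the libraries labelled Vav-Ezh2-KO lay inside the WT range or just above it. These values sum the reads over the whole gene. Reads on the exons removed by Cre were not separated from those on the exons that stay, so the level of *Ezh2* does not check the deletion in either cross (the study examined it by other assays, a Cre reporter and the deleted exon), and fewer cells with the transcript and less of it per cell cannot be told apart.

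The question of the design was whether deletion of *Ezh2* in endothelium or in hematopoietic cells changed the EMP transcriptome. Either knockout was set here against the pooled 5 WT libraries, which both comparisons share, with the WT of its own cross as an alternative. *Ezh2* fell by 0.48 on the log2(RPKM + 0.2) scale in Tie2-Ezh2-KO (standard error 0.12, limma adjusted p = 0.0418 over 14154 genes; lower than all WT in 5 of 5 libraries). The two-sided exact permutation p was 0.00794, the smallest that 5 against 5 libraries allow. In the libraries labelled Vav-Ezh2-KO its change was -0.02 (standard error 0.11, limma adjusted p = 0.969). Against Vav-Ezh2-WT alone it was -0.17, with 4 of 5 libraries below both of those WT libraries, and it was called under none of 22 alternatives. Set directly against Vav-Ezh2-KO, Tie2-Ezh2-KO had less *Ezh2* by -0.46 (standard error 0.11, limma adjusted p = 0.0269), with 5 of 5 libraries below all 5. The difference between the 2 knockout effects, each taken against the WT of its own cross, was -0.22 (standard error 0.18, limma adjusted p = 0.972), so an unequal effect on *Ezh2* was not shown. The call against WT was near the threshold. It held in 10 of 22 alternatives, with changes of -0.56 to -0.39 and limma adjusted p from 0.0107 to 0.344. It was lost against Tie2-Ezh2-WT alone (-0.39, limma adjusted p = 0.344) and without the 2 libraries with visceral endoderm transcripts (-0.50, limma adjusted p = 0.137). It was also lost when any 1 of 7 libraries was left out, namely Tie2-Ezh2-WT replicate 4 or 10, Vav-Ezh2-WT replicate 4 or 6, or Tie2-Ezh2-KO replicate 7, 11 or 17, with limma adjusted p of 0.0760 to 0.126, and it was kept when replicate 9 of Tie2-Ezh2-KO was omitted (-0.47, limma adjusted p = 0.0470). Between the knockouts the call held in 13 of 21 alternatives (limma adjusted p from 0.0141 to 0.0784). It ended without Tie2-Ezh2-KO replicate 7, 11 or 17 and without Vav-Ezh2-KO replicate 9, 10 or 26. Leaving out the 2 libraries with visceral endoderm transcripts (-0.47, limma adjusted p = 0.0571) removes only Tie2-Ezh2-KO replicate 7 here. It is the same fit as leaving out that library, although the 21 count both.

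*Ezh1*, on chromosome 11, encodes the other catalytic subunit. It read 1.60, 2.67 and 2.66 RPKM in Tie2-Ezh2-WT replicates 4, 10 and 12 and 2.43 and 3.38 RPKM in the 2 Vav-Ezh2-WT libraries. Tie2-Ezh2-KO replicates 7, 9, 11, 13 and 17 gave 0.913, 1.23, 1.45, 2.90 and 2.09 RPKM, and Vav-Ezh2-KO replicates 1, 9, 10, 26 and 28 gave 3.07, 2.95, 1.29, 1.45 and 2.57 RPKM. The groups overlapped, 3 of 5 Tie2-Ezh2-KO and 2 of 5 Vav-Ezh2-KO libraries lay below the lowest WT value, and no knockout group stood above WT. The change was -0.58 in Tie2-Ezh2-KO (standard error 0.31, limma adjusted p = 0.570) and -0.20 in Vav-Ezh2-KO (standard error 0.28, limma adjusted p = 0.879), and *Ezh1* rested on only 61 to 458 reads per library. As a share of *Ezh1* and *Ezh2* RPKM together, *Ezh1* made up 6.33% ± 1.59 (SD, n = 5) in WT, 5.89% ± 2.28 (SD, n = 5) in Tie2-Ezh2-KO and 5.77% ± 2.20 (SD, n = 5) across the Vav-Ezh2-KO libraries. These shares differed by less than the spread between libraries.

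*Eed* encodes the subunit that binds methylated H3K27 and *Suz12* the scaffold that joins the catalytic lobe to the accessory factors. *Eed* was at 89.0 ± 8.61 RPKM (SD, n = 5) in WT, 80.5 ± 7.35 (SD, n = 5) in Tie2-Ezh2-KO and 80.1 ± 10.6 (SD, n = 5) across the Vav-Ezh2-KO libraries. Its changes against WT were -0.14 and -0.16, with limma adjusted p of 0.761 and 0.722. *Suz12* was at 10.6 ± 3.43 RPKM (SD, n = 5) in WT, 9.64 ± 1.53 (SD, n = 5) in Tie2-Ezh2-KO and 8.76 ± 0.938 (SD, n = 5) across the Vav-Ezh2-KO libraries. Its spread was widest in Tie2-Ezh2-WT, where replicates 4, 10 and 12 gave 14.6, 12.6 and 6.00 RPKM. Neither core subunit was called in any comparison.

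RBBP4 and RBBP7 are near-identical histone-binding proteins that PRC2 shares with the NuRD, Sin3, CAF-1, NURF and, for RBBP4, MuvB complexes. *Rbbp4*, on chromosome 4 from 129307100 to 129335370 (minus strand), gave 38.7, 40.4 and 40.5 RPKM in Tie2-Ezh2-WT replicates 4, 10 and 12 and 63.4 and 57.8 RPKM in Vav-Ezh2-WT replicates 4 and 6. Tie2-Ezh2-KO replicates 7, 9, 11, 13 and 17 gave 36.8, 31.1, 29.8, 41.6 and 39.9 RPKM, and Vav-Ezh2-KO replicates 1, 9, 10, 26 and 28 gave 53.1, 65.9, 49.2, 68.8 and 66.6 RPKM. The libraries therefore sorted by cross and not by genotype, with all 8 of the Tie2-Cre cross, WT and KO, at 29.8 to 41.6 RPKM and all 7 of the Vav-Cre cross at 49.2 to 68.8 RPKM. In each cross the WT libraries lay inside the range of the KO libraries. *Rbbp4* was the 1 member of 10 whose crosses did not overlap, and over all genes this held for 89 of 14394 (0.618%), 66 of them lower in the Tie2-Cre cross. This way of grouping was chosen after the values were seen.

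In the tests of the design, *Rbbp4* was lower in Tie2-Ezh2-KO than in Vav-Ezh2-KO by -0.76 (standard error 0.13, limma adjusted p = 0.00478), with 5 of 5 libraries below all 5. It kept this call under all 21 alternatives, with limma adjusted p from 0.00110 to 0.0263. That without the 2 libraries with visceral endoderm transcripts (-0.77, limma adjusted p = 0.0126) removes only Tie2-Ezh2-KO replicate 7 here and is the same fit as leaving out that library. Between the WT groups of the 2 crosses the difference was -0.60 (standard error 0.17, limma unadjusted p = 0.00272, adjusted p = 0.503, n = 3 and 2), and did not pass the threshold. The difference between the 2 knockout effects was -0.16 (standard error 0.21, limma adjusted p = 0.990). Against the pooled WT the changes were -0.41 in Tie2-Ezh2-KO (limma adjusted p = 0.295) and 0.35 in Vav-Ezh2-KO (limma adjusted p = 0.612), but against the WT of the same cross they were -0.17 and -0.00830. The pooled WT thus joins *Rbbp4* values of 38.7 to 40.5 RPKM in Tie2-Ezh2-WT with 57.8 and 63.4 RPKM in Vav-Ezh2-WT, a difference that did not pass the threshold. A difference between the knockouts beyond that between the WT groups was not shown. Of the 20 genes tested that lie nearest to *Rbbp4* on chromosome 4, 10 on each side, none had crosses that did not overlap (0.618% of all genes) and 1, *Fndc5*, was called between the knockouts (1.75, limma adjusted p = 0.0222; 3.51% of all genes were called), counts too small to set the neighbours apart from other genes. These neighbours were looked up after the values of *Rbbp4* were seen.

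*Rbbp7*, on the X chromosome, showed no such split. It stood at 450.1, 418 and 513 RPKM in Tie2-Ezh2-WT replicates 4, 10 and 12 and at 471 and 466 RPKM in Vav-Ezh2-WT replicates 4 and 6. The knockout means were 456 ± 52.7 RPKM (SD, n = 5) in Tie2-Ezh2-KO and 462 ± 36.4 (SD, n = 5) in Vav-Ezh2-KO. The changes of *Rbbp7* were -0.03 in Tie2-Ezh2-KO, -0.00384 in Vav-Ezh2-KO and -0.02 between the knockouts, and none was called. Of the *Rbbp4* and *Rbbp7* RPKM together, *Rbbp7* made up 92.0% ± 0.755 (SD, n = 3) in Tie2-Ezh2-WT, 92.6% ± 1.71 (SD, n = 5) in Tie2-Ezh2-KO, 88.5% ± 0.581 (SD, n = 2) in Vav-Ezh2-WT and 88.3% ± 2.06 (SD, n = 5) across the Vav-Ezh2-KO libraries. *Rbbp7* was thus the main source of these transcripts in every library. Its mean share was higher in the cross where *Rbbp4* was lower, which restates the *Rbbp4* values, since *Rbbp7* itself showed no such split.

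*Jarid2* and *Aebp2* encode the accessory factors of the form named PRC2.2, in which JARID2 links the complex to chromatin and AEBP2 contacts SUZ12. Both were low and variable. *Jarid2* ranged from 1.74 to 3.24 RPKM in WT, 1.17 to 3.03 in Tie2-Ezh2-KO and 1.27 to 2.57 in Vav-Ezh2-KO libraries. *Aebp2* ranged from 1.65 to 3.60 RPKM in WT, 1.24 to 2.99 in Tie2-Ezh2-KO and 1.88 to 2.93 in Vav-Ezh2-KO libraries. The groups overlapped for both genes, and with 110 to 531 reads per library the standard errors of their changes were 0.24 to 0.30 in the 3 comparisons of a knockout and 0.40 to 0.48 in the other 2 tests. Neither was called in any comparison.

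*Mtf2* and *Phf19* encode Polycomb-like proteins of the form named PRC2.1, which bring the enzyme to unmethylated CpG-rich DNA. *Mtf2* was the main one of the pair and stood at 67.5, 51.7 and 47.4 RPKM in Tie2-Ezh2-WT replicates 4, 10 and 12, above the 42.4 and 43.7 RPKM of the 2 Vav-Ezh2-WT libraries. That difference between the WT groups, 0.35 (standard error 0.16, limma adjusted p = 0.816), did not pass the threshold. It stood at 47.0 ± 3.33 RPKM (SD, n = 5) in Tie2-Ezh2-KO and 43.6 ± 4.97 (SD, n = 5) across the Vav-Ezh2-KO libraries.

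*Phf19*, on chromosome 2 from 34893752 to 34914353 (minus strand), had the one positive change among the members in Tie2-Ezh2-KO with the settings used for the calls, while the small negative changes of *Suz12*, *Mtf2* and *Rbbp7* turned positive under some alternatives. It gave 0.873, 0.642 and 0.788 RPKM in Tie2-Ezh2-WT replicates 4, 10 and 12 and 1.15 and 1.70 RPKM in Vav-Ezh2-WT replicates 4 and 6. Tie2-Ezh2-KO replicates 7, 9, 11, 13 and 17 gave 2.45, 0.752, 3.43, 2.76 and 2.52 RPKM, and Vav-Ezh2-KO replicates 1, 9, 10, 26 and 28 gave 0.993, 2.63, 0.634, 0.580 and 1.57 RPKM. In Tie2-Ezh2-KO 4 of 5 libraries lay above all WT libraries and replicate 9 among the lowest, while Vav-Ezh2-KO libraries were scattered over nearly the whole range. The change in Tie2-Ezh2-KO was 1.002 (standard error 0.37, limma adjusted p = 0.245, two-sided exact permutation p = 0.0476), and it was not called. Without replicate 9 it was 1.33 with a limma adjusted p of 0.0230, the one alternative of 22 under which *Phf19* passed the threshold (limma adjusted p from 0.0230 to 0.516). The difference between the 2 knockout effects was 1.58 (standard error 0.68, limma unadjusted p = 0.0328, adjusted p = 0.667). As a share of *Mtf2*, *Phf19* and *Phf1* RPKM, *Phf19* made up 1.37% ± 0.224 (SD, n = 3) in Tie2-Ezh2-WT, 3.17% ± 0.765 (SD, n = 2) in Vav-Ezh2-WT, 4.71% ± 1.81 (SD, n = 5) in Tie2-Ezh2-KO and 2.94% ± 2.02 (SD, n = 5) across the Vav-Ezh2-KO libraries, so *Mtf2* remained far more abundant in every library. *Phf19* rested on 25 to 277 reads per library.

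Of 5 further accessory factors, listed to cover the rest of the complex, none was called in the comparisons where it was tested, 4 of the 5 being tested in Vav-Ezh2-KO against WT. *Phf1*, the remaining Polycomb-like gene, was at or below 0.677 RPKM, and *Ezhip*, an inhibitor of PRC2 (AU022751 in the table), was listed at 0 in 14 of 15 libraries. *Epop*, an elongin-binding factor of PRC2.1 (E130012A19Rik in the table), stood at 1.36 ± 0.584 RPKM (SD, n = 5) in WT, 3.43 ± 2.64 (SD, n = 5) in Tie2-Ezh2-KO and 2.35 ± 0.855 (SD, n = 5) across the Vav-Ezh2-KO libraries. Its highest values, 7.52 and 4.67 RPKM, came from replicates 13 and 17 of Tie2-Ezh2-KO, and its changes against WT, 1.03 and 0.74, had limma adjusted p of 0.368 and 0.607. *Lcor* and *Lcorl* stayed between 0.552 and 1.80 RPKM.

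**Figure D2:**
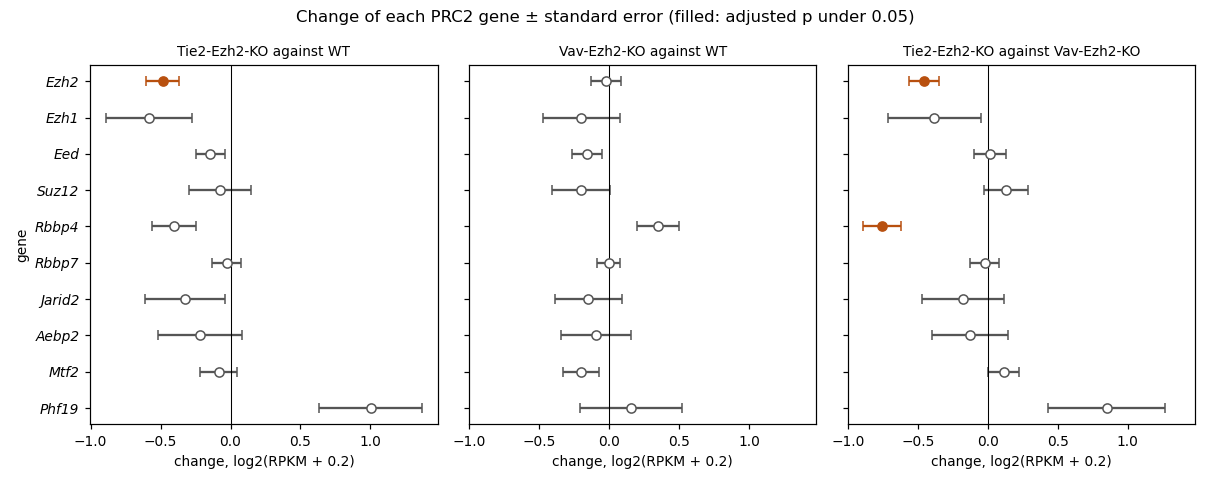
Change of the 10 PRC2 genes (y axis) on the log2(RPKM + 0.2) scale (x axis) in 3 comparisons, with the standard error from limma as bars; filled points have an adjusted p under 0.05. *Ezh2* at -0.48 is the single filled point against WT in Tie2-Ezh2-KO, none is filled in Vav-Ezh2-KO, and *Ezh2* at -0.46 and *Rbbp4* at -0.76 are filled between the knockouts.

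Counted together, 1 of 10 members fell and none rose in Tie2-Ezh2-KO against WT, where 386 of 14154 genes (2.73%) were called, 343 of them higher. Libraries did not overlap for the same 1 member, *Ezh2*, and for 4.01% of all genes. The median change of the members was -0.18, and of all genes 0.01, with 9 of 10 members negative. In Vav-Ezh2-KO against WT none of 10 was called, where limma called 1 of 13646 genes (0.00733%) limma-voom called 0, and 1082 had an unadjusted p under 0.05 with limma, *Rbbp4* being the 1 member among these. No member was without overlap, against 1.41% of all genes, and the median change was -0.12 for the members and -0.02 for all genes. Between the knockouts 2 of 10 members were called, both lower in Tie2-Ezh2-KO, where 495 of 14120 genes (3.51%) were called, and the same 2 did not overlap, against 5.23% of all genes. Of these 495 genes 75.2% were higher in Tie2-Ezh2-KO, and 63.6% of those called after quantile normalization. The median change of the 10 members was -0.08, and 0.04 for all genes. In the comparison of the WT groups limma called no member and 2 of 14394 genes (0.0139%), and in the difference between the knockout effects no member and 26 of 14394 genes (0.181%), 88.5% of them positive, or 75.0% of those called after quantile normalization. At an unadjusted p under 0.05 these 2 tests had 871 and 942 genes, with *Rbbp4* and *Mtf2* in the former and *Phf19* in the latter. The counts over all genes moved with the alternatives. They ran from 187 to 533 in Tie2-Ezh2-KO against WT, 320 to 969 between the knockouts and 2 to 78 in the difference of effects. With 10 members, 1 or 2 calls are few to set beside these percentages.

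Genes of other complexes around PRC2 were counted in the same fits. None of the 2 H3K27 demethylases, of the 10 NuRD genes tested, of the 9 partners of RBBP4 and RBBP7 in CAF-1, Sin3, NURF and MuvB, of the 3 PR-DUB genes tested or of the 5 H3K36 methyltransferases was called in any of the 5 comparisons. In Tie2-Ezh2-KO against WT their median changes were -0.24, -0.04, -0.00071, -0.15 and -0.08, beside 0.01 for all genes. *Hdac2*, a deacetylase of NuRD, stood at 146 to 197 RPKM over the 15 libraries. None of 8 replication and proliferation genes was called either, and the group sums were 1597 ± 141 RPKM (SD, n = 5) in WT, 1586 ± 193 (SD, n = 5) in Tie2-Ezh2-KO and 1594 ± 71.3 (SD, n = 5) across the Vav-Ezh2-KO libraries. The 3 groups overlapped in this sum.

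Markers of other cell types differed in the same 2 comparisons as *Ezh2*. Of 3 primitive erythroid genes, *Hba-x* and *Hbb-bh1* were higher in Tie2-Ezh2-KO than in WT (6.33 and 1.18, limma adjusted p = 8.9e-05 and 0.0441) and *Hbb-y* was not called. Their summed level, to which *Hbb-bh1* gave most in each library but Tie2-Ezh2-KO replicate 9, where *Hba-x* did, was 309, 585, 855, 192 and 284 RPKM for replicates 7, 9, 11, 13 and 17 of Tie2-Ezh2-KO, against 65.2 to 142 RPKM in WT and 59.9 to 155 RPKM in Vav-Ezh2-KO libraries. All 5 Tie2-Ezh2-KO libraries thus lay above every other library. Of 5 visceral endoderm genes tested, *Amn* was higher in Tie2-Ezh2-KO (3.01, limma adjusted p = 0.00155), at 1.52 to 4.66 RPKM against 0 to 0.798 in WT. The other 4 were not called. *Amn* was highest in Tie2-Ezh2-KO replicate 7, where these markers summed to 214 RPKM. It stood at 0.798 RPKM in Tie2-Ezh2-WT replicate 4 with a sum of 143 RPKM. In Tie2-Ezh2-KO replicates 11 and 13, with sums of 5.00 and 5.39 RPKM, it stood at 1.52 and 2.08 RPKM. Between the knockouts *Hba-x*, *Hbb-bh1* and *Amn* were likewise higher in Tie2-Ezh2-KO (5.64, 1.29 and 3.42, limma adjusted p = 0.000422, 0.0302 and 0.000149). In the difference of knockout effects *Hba-x* was the 1 marker called (6.41, limma adjusted p = 0.0457). Of 5 megakaryocyte genes *Gp1ba* was lower in Tie2-Ezh2-KO than in WT (-0.94, limma adjusted p = 0.0495). It was not called between the knockouts (-0.64, limma adjusted p = 0.131). The sums of this list, with *Pf4* or *Gp9* the most abundant gene, ranged from 69.4 to 231 RPKM in Tie2-Ezh2-KO and 42.5 to 234 RPKM in WT libraries. Of these calls, those of *Amn* held under all alternatives in both comparisons, also without replicate 9 of Tie2-Ezh2-KO (3.10 against WT) and without the 2 libraries with visceral endoderm transcripts (3.19). Those of *Hba-x* in the same comparisons ended only with limma-voom against WT (6.38, limma adjusted p = 0.0802, range 4.1e-05 to 0.0802), and its changes against WT were 5.96 without replicate 9 and 6.78 without those 2 libraries. The others were near the threshold. *Hbb-bh1* against WT was called in 7 of 22 alternatives (limma adjusted p from 0.0248 to 0.246) and neither without replicate 9 (1.15) nor without the 2 libraries (1.24), nor without any 1 WT library or Tie2-Ezh2-KO replicate 7 or 11. Between the knockouts it was called in 12 of 21 (limma adjusted p from 0.0176 to 0.0922), among them without replicate 9 of Tie2-Ezh2-KO. It was not called there without Tie2-Ezh2-KO replicate 7 (1.27, the same fit as without the 2 libraries) or 11, or Vav-Ezh2-KO replicate 1, 9 or 10. *Gp1ba* was called in 7 of 22 (limma adjusted p from 0.0174 to 0.250) and neither without replicate 9 (-0.94) nor without the 2 libraries (-0.76), nor without Tie2-Ezh2-WT replicate 4 or 10, any 1 Vav-Ezh2-WT library or Tie2-Ezh2-KO replicate 7, 11 or 17. *Hba-x* in the difference of effects was called in 6 of 25 (limma adjusted p from 0.0146 to 0.731) and neither without replicate 9 (6.03) nor without the 2 libraries (7.07), nor without any 1 WT library, Tie2-Ezh2-KO replicate 11 or 17, or Vav-Ezh2-KO replicate 1, 10 or 28. No gene of the endothelial list (sums with *Pecam1* or *Esam* the most abundant gene, 35.8 to 48.1 RPKM in Tie2-Ezh2-KO and 36.8 to 42.5 in WT), of the 4 macrophage genes tested (sums with *Csf1r* or, in Tie2-Ezh2-WT replicate 12, *Cx3cr1* the most abundant gene, 0.975 to 8.26 and 1.76 to 10.8 RPKM, with *C1qa* at 0 in all 15 libraries) or of the 2 mesenchyme genes tested was called. Of the 6 endothelial genes, 5 had a positive change in Tie2-Ezh2-KO against WT, and the median of the list was 0.26. *Pecam1* was the 1 with a negative change (-0.62, limma adjusted p = 0.150), at 6.67 to 13.8 RPKM against 15.4 to 22.5 RPKM in WT. The sort discarded cells positive for lineage markers (LIN) or SCA1. Antibodies to TER119 of erythroid cells and F4/80 of macrophages were among those listed for it. The part of these cell types in the level of *Ezh2* or of other members was not tested.

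The genes most like *Ezh2* over the 15 libraries, among 6863 genes with a mean of at least 5 RPKM, were *Leprotl1*, *Sh3glb1* and *Clec7a*, with Pearson r of 0.920, 0.894 and 0.868 of log2(RPKM + 0.2). *Clec7a* stood at 0 to 3.31 RPKM in Tie2-Ezh2-KO and at 0.492 to 14.1 RPKM in WT libraries, which overlapped. For *Rbbp4* they were *Btk*, *Plekho2* and *Grb2* (0.937, 0.929 and 0.920). *Btk* ranged from 25.6 to 41.2 RPKM in the Tie2-Cre cross and from 43.6 to 59.9 RPKM in the Vav-Cre cross, without overlap. *Grb2* did not overlap either (42.2 to 59.5 and 61.7 to 84.1 RPKM), while *Plekho2* did (5.37 to 10.1 and 9.93 to 15.2 RPKM). These genes were picked for their likeness to *Rbbp4*, so a split by cross adds nothing to that of *Rbbp4*. These coefficients describe libraries that fall into groups and crosses, and carry no test.

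The promoters of the members are set out as a description of sequence. *Ezh2* and *Rbbp4* were called lower in Tie2-Ezh2-KO than in Vav-Ezh2-KO and *Phf19* was not called. The *Rbbp4* libraries, however, sorted by cross with WT included, and *Ezh2* is the targeted gene. A part of the promoters in these levels was not tested. RefSeq windows on GRCm38.p6, from 250 bases before to 50 bases after a transcription start, were found for all 10 members, 14 windows in all. The letters TTTNNCGC, a form of the site bound by E2F factors of the cell cycle, were searched on both strands (GCGNNAAA on the other). They were present in 3 of the 14 member windows, 1 each of *Ezh2*, *Suz12* and *Phf19*, and in 5.17% of all 32851 windows of 300 bases. *Phf19* had 2 matches, GCGGGAAA and GCGAAAAA, starting at -208 and -198 from the transcription start. *Suz12* had 1, TTTCCCGC, at -219, and *Ezh2* had 1, TTTGGCGC, at 3 bases past the start. The member windows were rich in CpG, with a median of 23.5 CpG against 7 over all windows, from 2 in a second window of *Mtf2* to 41 in *Suz12*. The letters searched hold a CG themselves, so the percentage over all windows is not matched to the member windows. Some members also have more than 1 window. The counts therefore do not show whether the letters are more frequent in the members. The windows of *Ezh2*, *Rbbp4* and *Phf19* follow in the direction of transcription, with matches in capitals. They are chr6:47594981-47595280 for *Ezh2*, chr4:129335321-129335620 for *Rbbp4* and chr2:34913927-34914226 for *Phf19*, all on the minus strand. The RefSeq starts of the *Ezh2* and *Phf19* windows lie inside the gene spans given above, so they are not the outermost starts of these genes.
Ezh2: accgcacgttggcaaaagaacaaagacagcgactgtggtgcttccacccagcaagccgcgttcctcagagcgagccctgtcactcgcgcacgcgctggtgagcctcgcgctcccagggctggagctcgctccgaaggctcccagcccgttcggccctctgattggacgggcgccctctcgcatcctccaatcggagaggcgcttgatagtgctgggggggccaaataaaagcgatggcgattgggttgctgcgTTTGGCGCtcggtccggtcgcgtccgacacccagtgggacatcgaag
Rbbp4: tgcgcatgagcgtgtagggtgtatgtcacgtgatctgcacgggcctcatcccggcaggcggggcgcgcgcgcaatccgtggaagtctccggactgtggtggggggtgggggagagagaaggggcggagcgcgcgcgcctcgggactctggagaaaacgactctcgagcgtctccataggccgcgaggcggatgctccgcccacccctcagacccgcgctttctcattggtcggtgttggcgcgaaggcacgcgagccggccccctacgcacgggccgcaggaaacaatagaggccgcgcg
Phf19: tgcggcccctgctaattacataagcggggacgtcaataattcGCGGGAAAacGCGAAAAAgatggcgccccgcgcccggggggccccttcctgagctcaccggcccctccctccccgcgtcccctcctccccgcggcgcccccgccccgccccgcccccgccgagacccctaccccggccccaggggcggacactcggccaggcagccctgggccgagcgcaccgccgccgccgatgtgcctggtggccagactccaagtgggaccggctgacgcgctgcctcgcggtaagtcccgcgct
The *Rbbp4* window held no match, which says only that these letters are not in it. It does hold gttggcgc, which departs from the letters searched in the first base alone. Near matches were not counted in any window, and the N positions accept any base. The windows thus cannot be divided into those with and without a site of the E2F type. A match is a description of the sequence and shows no binding.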

How the data were processed

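Single-end reads had been placed on GRCm38 with TopHat2 2.0.13 and assigned to genes with featureCounts by the authors, who deposited RPKM of 17454 genes in 15 libraries. Labels and methods differ on the number of cells per library. Whole reads were recovered for 16875 of 16877 genes above 0 (tolerance 0.001 of a read). Values of log2(RPKM + 0.2) were tested with limma 3.58.1 in R 4.3.3 (lmFit, eBayes with trend) for every gene that passed 0.2 RPKM in 1 library or more, with Benjamini-Hochberg adjustment over all genes tested and a threshold of 0.05, and "called" means past it. WT groups and the difference of effects used all 15 libraries in 4 groups. The count test of the study was not run by choice, with limma on the deposited RPKM as the test and limma-voom on the recovered reads as an alternative. Exact permutation tests used 252 divisions. The members and gene lists were chosen with earlier results of these data known. Named genes were the members, listed genes past the threshold or among the most abundant of a list, and the 3 genes most like each called member. *Kit* and *Itga2b* were named as genes of the sort. *Phf1*, *Ezhip*, *Lcor*, *Hbb-y*, *C1qa*, *Fcgr2b*, *Fndc5* and the grouping by cross fall outside that rule and were chosen after their values were seen.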

Additional observations from a re-analysis of the deposited data

Results flagged for a closer look

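Among 10 members and 3 shares in 3 groups of 5 libraries (pooled WT and either knockout), 3 of 39 sets held a library far from the other 4, where chance gives about 1 in 20. *Phf19* in Tie2-Ezh2-KO replicate 9, at 0.752 RPKM, was separated from the next library by 0.765 of the range of the group on the log2 scale. *Jarid2* in Vav-Ezh2-KO replicate 10, at 1.27 RPKM, was separated by 0.826 of the range, and *Eed* in Vav-Ezh2-KO replicate 28, at 62.1 RPKM, by 0.727 of it. Each of the 3 was the lowest of its group. The difference between the 2 knockout effects was called for none of the 10 members by limma, with 1 of 10, *Phf19*, at an unadjusted p under 0.05.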

How the results depend on the processing

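Of 850 values that the alternatives gave for 38 member changes, 789 kept their direction and their side of the threshold, 20 lost the threshold, 1 gained it and 40, in 13 changes, changed sign. The largest change that reversed was 0.35 in size. No paired analysis was possible because the groups share at most 1 replicate number and the labels give no pairs. Leaving out the 2 libraries with the highest visceral endoderm markers was chosen after seeing the data. Between the knockouts it removes only Tie2-Ezh2-KO replicate 7, so 2 of the 21 alternatives there are the same fit. The cause of the shifts below was not tested.

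Members past the threshold in Tie2-Ezh2-KO against WT numbered 1. They were 0 with a common median, eBayes without trend, the WT of the same cross, limma-voom, or without the 2 visceral endoderm libraries, and 0 to 2 with 1 library left out, the 2 being *Ezh2* and *Phf19* without Tie2-Ezh2-KO replicate 9. Between the knockouts 2 members became 1 without trend or without the 2 visceral endoderm libraries, and 1 to 2 with 1 library left out. Exact p under 0.05 held for 2 members in Tie2-Ezh2-KO against WT, 1 with a pseudocount of 0.05, 3 with a common median and 1 to 2 with 1 library left out, and for 0 in Vav-Ezh2-KO, 1 with a common median and 0 to 1 with 1 library left out (1 without Vav-Ezh2-WT replicate 4). Between the knockouts it held for 2, and for 2 to 3 with 1 library left out (3 without Tie2-Ezh2-KO replicate 9).

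Over all genes, 386 in Tie2-Ezh2-KO against WT became 240 at a mean of at least 1 RPKM, 187 with the WT of the same cross and 217 without the 2 visceral endoderm libraries. The 1 gene of Vav-Ezh2-KO against WT became 2 with the WT of the same cross, 0 with limma-voom and 1 to 2 with 1 library left out. The 495 between the knockouts became 765 with array weights and 320 to 969 with 1 library left out, the extremes being without Vav-Ezh2-KO replicate 28 and without Tie2-Ezh2-KO replicate 9. The 2 between the WT groups became 1 with a pseudocount of 1 or without trend, 4 with no filter, 25 with array weights, 0 with a common median, limma-voom or without the 2 visceral endoderm libraries, and 0 to 8 with 1 library left out. The 26 in the difference of knockout effects became 16 with no filter, 10 at a mean of at least 1 RPKM, 12 with quantile normalization or a common median, 78 with array weights, 2 with limma-voom, 9 without the 2 visceral endoderm libraries and 8 to 32 with 1 library left out.

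In Tie2-Ezh2-KO against WT, *Suz12* reversed to 0.0563 with limma-voom and 0.0574 without the 2 visceral endoderm libraries (-0.26 to 0.0542 with 1 library left out), *Mtf2* to 0.00431 without those 2 libraries (-0.14 to 0.0240), and *Rbbp7* ranged from -0.0817 to 0.0180. In Vav-Ezh2-KO against WT, the WT of the same cross gave 0.12 for *Aebp2*, 0.0101 for *Mtf2*, -0.29 for *Phf19* and -0.00830 for *Rbbp4*. A common median gave 0.0262 for *Ezh2* and 0.0457 for *Rbbp7*, quantile normalization 0.00104 for *Ezh2*, array weights 0.00932 for *Rbbp7*, and leaving out the 2 visceral endoderm libraries 0.00871 for *Aebp2*. With 1 library left out, the ranges were -0.22 to 0.0391 for *Aebp2*, -0.10 to 0.0151 for *Ezh2*, -0.26 to 0.0157 for *Jarid2*, -0.12 to 0.34 for *Phf19* and -0.0406 to 0.0364 for *Rbbp7*. Between the knockouts, *Eed* reversed to -0.0210 with a common median and -0.0373 with array weights (-0.0758 to 0.0539 with 1 library left out), *Rbbp7* to 0.0913 with quantile normalization (-0.0779 to 0.0219), and *Aebp2* ranged from -0.25 to 0.0380.

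Gene-level RPKM does not separate exons, *Phf19* rested on 25 to 277 reads per library, and the WT groups hold 3 and 2 libraries. Reads were amplified before sequencing, so counts of reads are not counts of molecules.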
